A study of Rattus norvegicus with 6 samples.

Results

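The baseline of the cultured rat lens was read from a single GeneChip Rat Gene 2.0 ST array, the Control. Its members were all genes with a probe set linked to 1 gene symbol, ranked by their log2 signal on that array. Of 36685 probe sets on the array, 19086 were linked to a gene. The 18511 of these with 1 symbol gave 18166 genes, all of which were ranked, and the 575 with several symbols were left out. A gene was called detected where its signal on the Control was at least 5, and 4450 of the 18166 genes (24.5%) reached it. The study's methods use the same value differently, leaving out genes that are under it in all samples. No difference was tested, because the Control had 1 array and therefore no spread of its own.

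The lenses came from male Sprague Dawley rats, 6 weeks old, and were cultured whole, each in 2 mL of M199 medium with 0.1% bovine serum albumin at 37 °C and 5% CO2. The Control lenses had no galactose, and sterile water is the only vehicle named for them. Their time in culture is 6 days by the methods but 4 days by the drawn scheme, and the sources used here do not state how many lenses went into each array. The series holds 5 further arrays, used below to show how far a value moved from array to array. They also entered the choice among several probe sets of a gene and some alternative counts given at the end. Of the 5 arrays, 3 were of lenses in 30 mM galactose with DMSO (Galactose). The others, 1 each, were of lenses that also had AZD0156 or KU55933, inhibitors of the kinase Atm, at 20 µM for the last 3 days.

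The lens is a closed tissue with a single sheet of epithelial cells over a mass of elongated fibre cells, wrapped in a basement membrane called the capsule. Fibre cells fill with crystallins, long-lived soluble proteins that give the lens its refractive power, and then lose their nuclei and organelles. The adult lens has no blood vessels and no nerves, so few other cell types are present unless neighbouring tissue is carried along in dissection. RNA of the whole lens therefore mixes epithelium with the fibres that still hold RNA, and in such a mixture fewer cells of a type and less RNA per cell cannot be told apart.

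Gene signals on the Control array ran from 0.26 to 13.34, with a median of 3.46 and quartiles of 2.32 and 4.97. Of the 18166 genes, 2348 reached 6, 477 (2.63%) reached 8, 118 reached 10, 21 reached 12 and 7 reached 13. The top of the ranking was thus thin, and the 100th gene had a signal of 10.22. The bound of 5 fell where genes were dense, with 571 genes from 4.8 to under 5 and 498 from 5 to under 5.2. The standard deviation over the 3 Galactose arrays had a median of 0.19 among genes from 4.5 to 5.5, so genes this close to the bound were not separated from it by the spread seen between arrays. A rank orders probe set signals, which depend on how strongly each probe set binds and on near-identical copies of a gene as well as on the amount of RNA.

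**Figure D1:**
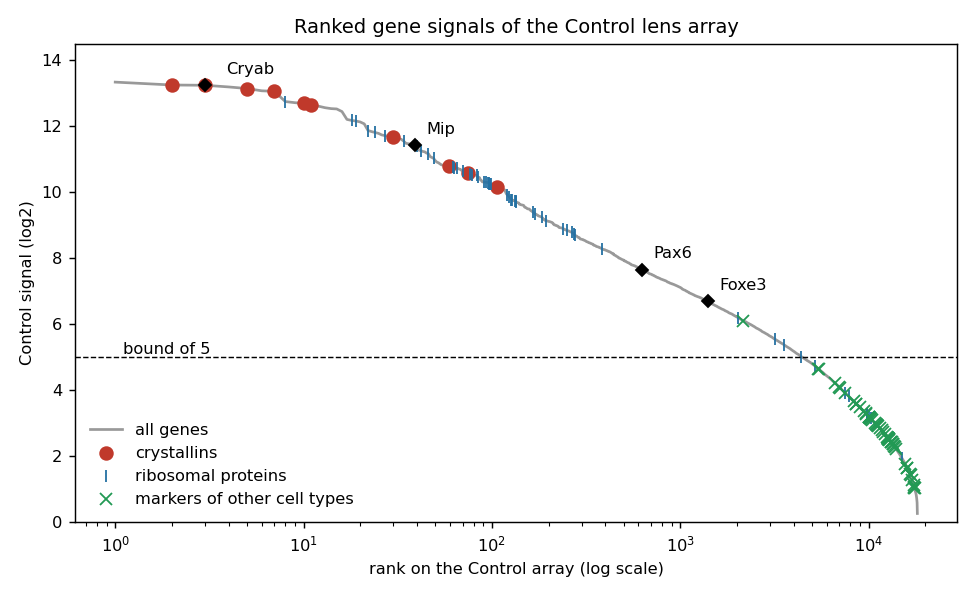
Control signal (log2) of all 18166 genes against rank (log scale), with crystallins as red circles, cytosolic ribosomal proteins as blue ticks, markers of other cell types as green crosses and the lens markers Cryab, Mip, Pax6 and Foxe3 as black diamonds. Crystallins and most ribosomal proteins sit at the upper left, while every listed marker of another cell type but 1 (Des, 6.11) lies under the dashed bound of 5.

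Of the 5 genes taken as lens markers (Cryaa, Cryab, Mip, Foxe3 and Pax6), 4 were linked to a probe set and all 4 were detected. Cryaa, the alpha A crystallin, is not linked in the probe table and has no value here. Cryab, the small heat shock protein alpha B crystallin, had a signal of 13.25 on the Control array, and 13.15, 13.15 and 13.05 on the Galactose arrays, 13.17 with AZD0156 and 13.17 with KU55933. It was the third highest gene of the Control. Mip, the water channel and adhesion protein of fibre membranes, stood at 11.42 on the Control, at 11.05, 10.88 and 10.97 on the Galactose arrays, at 11.04 with AZD0156 and at 11.30 with KU55933, and ranked 39. Both were high on all 6 arrays.

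Pax6, the homeodomain factor on which eye formation depends, stood at 7.65 on the Control, at 6.57, 7.87 and 7.85 on the Galactose arrays, at 7.36 with AZD0156 and at 7.39 with KU55933. The Control value lay inside the range of the others. Foxe3, a forkhead factor of the lens epithelium, stood at 6.69 on the Control, at 4.48, 5.05 and 4.92 on the Galactose arrays, at 4.48 with AZD0156 and at 4.28 with KU55933. The Control was the highest of the 6 arrays for Foxe3, and 1 of the other 5 reached the bound. The ranks of Pax6 and Foxe3 on the Control were 626 and 1411, so the regulators lay far below the structural genes.

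The 20 highest genes of the Control were Ftl1 (13.34), Cryba1 (13.26), Cryab, Rpph1 (13.20), Cryba2 (13.15), Grifin (13.08), Crygd (13.06), Rps29 (12.75), Igfbp7 (12.72), Crygc (12.70), Crygs (12.66), COX1 (12.61), Eef1a1 (12.57), COX3 (12.54), Vim (12.53), Rn5-8s (12.45), Hspa8 (12.21), Rpsa (12.18), Rpl41 (12.16) and Lgsn (12.14). They fall into a few kinds. Crystallins took 6 places, and Grifin, a galectin-related protein of fibre cells, Vim, the intermediate filament vimentin, and Lgsn, lengsin, a fibre protein related to glutamine synthetase, took another 3. Ribosomal proteins (Rps29, Rpsa, Rpl41) and the elongation factor Eef1a1 carried translation, and COX1 and COX3 are subunits of cytochrome oxidase encoded by the mitochondrial genome. Rpph1 is the RNA subunit of RNase P, Rn5-8s is ribosomal RNA, Hspa8 is the constitutive Hsc70 chaperone, and Igfbp7 is a secreted protein that binds insulin-like growth factors.

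Ftl1, the ferritin light chain that stores iron together with the heavy chain, was the highest of the 18166 ranked genes, although a probe set linked to no gene reached 13.57. Its signal was 13.34 on the Control, 13.26, 13.39 and 13.31 on the Galactose arrays, 13.38 with AZD0156 and 13.31 with KU55933. The 6 arrays thus lay within a narrow band. Clu, which encodes the secreted chaperone clusterin and came next after the 20 highest, was spread more widely, at 12.08 on the Control, at 9.62, 11.17 and 11.47 on the Galactose arrays, at 10.77 with AZD0156 and at 10.67 with KU55933. The set of highest genes was much the same on every array, and between 83 and 86 of the Control's 100 highest genes were among the 100 highest of each other array.

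By the gene lists used here, the 100 highest genes held 26 cytosolic ribosomal proteins and a further 13 ribosomal protein paralogs or pseudogenes by name. They held 9 crystallins (1 alpha, 2 beta and 6 gamma), 6 other fibre genes, 3 epithelium genes and 1 capsule gene. Translation factors took 4 places and genes encoded by the mitochondrial genome took 3. Actin cytoskeleton genes, chaperones and iron and metal binding genes took 2 places each, and glycolysis and the nuclear-encoded respiratory chain took 1 each. By RefSeq gene type, 90 of the 100 were protein coding, 4 were pseudogenes, 1 was an lncRNA, 1 a ribosomal RNA and 1 an RNase RNA, and 3 were not matched.

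The remaining 27 of the 100 were in no list, and those given next were chosen after their values were seen. Beside Igfbp7, Rpph1 and Rn5-8s they included Ccng1 (11.64), the p53 target cyclin G1, Lgals1 (11.47), the secreted lectin galectin-1, and Fxyd1 (11.28), a regulator of the sodium pump. Gas5 (11.09), a spliced RNA that hosts small nucleolar RNAs, and Ybx1 (10.92), an RNA-binding protein, were also there. Lctl (10.67), a lens protein of the Klotho family, and Clic5 (10.31), a chloride intracellular channel protein, stood beside Ndrg1 (10.77), a gene known to respond to hypoxia. Lctl was not on the fibre list and is not counted among the lens genes below.

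Crystallins are the bulk of fibre cell protein. Alpha crystallins are small heat shock proteins that act as chaperones, and beta and gamma crystallins share a fold and are structural. Of 16 alpha, beta and gamma crystallin genes listed, 10 were linked, and all 10 had a signal above 10, from 10.17 to 13.26 with a median of 12.68. Over all genes the median was 3.46 and 24.5% were detected. The 6 not linked (Cryaa, Cryba4, Crybb1, Crybb2, Crybb3 and Cryga) have no value here, so the beta B family could not be read from the linked probe sets.

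Among the beta crystallins, Cryba1 stood at 13.26 on the Control, at 13.30, 13.23 and 13.23 on the Galactose arrays, at 13.29 with AZD0156 and at 13.32 with KU55933, and Cryba2 was at 13.15 on the Control. The gamma crystallins spanned a wider range. Crygd (13.06), Crygc (12.70) and Crygs (12.66) were highest, Crygb was at 11.67, and Cryge (10.81), Crygn (10.59) and Crygf (10.17) were lowest. Crygf was the only crystallin outside the 100 highest genes, and its Control value lay below those of the other arrays, which were 11.77, 11.05 and 11.24 for Galactose, 11.61 with AZD0156 and 11.67 with KU55933. Crygb to Crygf are close copies of each other, so a probe set of this cluster may also bind the RNA of its neighbours, and the order among them is uncertain.

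Genes that carry the crystallin name without being lens structural crystallins were also looked at. Of 5 that were linked, 2 were detected, where 24.5% of all genes were, with a median of 4.34 against 3.46 over all genes. These were Cryzl1 (6.49), related to zeta crystallin, and Crybg3 (5.45). Cryz, which encodes quinone reductase and is a lens crystallin only in some mammals such as the guinea pig, stood at 4.34. Cryl1, whose product is the lambda crystallin of rabbit, stood at 3.68, and Crybg2 at 3.45.

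The promoters of the measured crystallins are shown because most of them share a feature. RefSeq (build GRCr8) gave a promoter for 9 of the 10 linked crystallins, and in 8 of the 9 (88.9%) the letters TATA stood on the plus strand of the gene between 40 and 20 bases before an annotated start. The same letters stood in that window in 4.85% of 14503 genes with a promoter, in 3.45% of 3765 detected genes, in 29.9% of 77 of the 100 highest genes and in 12.9% of 62 other lens genes. A gene with several annotated starts was counted where any of them held the letters, and over all 33469 promoter windows the share was 4.49%. Crygb, Crygc, Crygd and Cryge are close copies that lie near each other on chromosome 9, so their matches are not independent. The 100 highest genes include most of these same crystallins. Below are the 50 bases before the start for 5 crystallins with the letters and for Crygf, the crystallin without them, read 5′ to 3′ on the gene's strand with TATA in capitals.
Cryba1: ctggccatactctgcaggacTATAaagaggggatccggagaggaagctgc
Cryba2: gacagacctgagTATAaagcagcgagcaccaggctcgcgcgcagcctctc
Crygd: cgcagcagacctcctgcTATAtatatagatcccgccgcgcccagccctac
Crygb: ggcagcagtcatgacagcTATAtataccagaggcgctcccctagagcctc
Crygs: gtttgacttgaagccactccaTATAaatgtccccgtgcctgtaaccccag
Crygf: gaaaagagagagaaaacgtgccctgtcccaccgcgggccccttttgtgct
They lie at chr10:63112818-63112867 (minus strand) for Cryba1, chr9:83899132-83899181 (minus) for Cryba2, chr9:73937410-73937459 (minus) for Crygd, chr9:73957265-73957314 (minus) for Crygb, chr11:91711705-91711754 (plus) for Crygs and chr9:74897934-74897983 (plus) for Crygf. The letters TGCTGA, part of the sequence that Maf factors bind, stood on either strand within the 250 bases before a start in 4 of the 9 crystallins (44.4%) and in 14.4% of all genes with a promoter. A match in letters is a description and not a measured site. The annotated start of Crygf lies apart from those of Crygb and Crygd and on the other strand. Whether the lens uses that start was not tested.

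Lens genes as a whole were mostly detected. The lists of crystallins, fibre, epithelium, capsule and transcription factor genes named 113 genes, of which 93 were linked and 67 were detected (72.0%, against 24.5% of all genes). Without the crystallins the count was 57 of 83 (68.7%), with a median signal of 6.53 against 3.46 over all genes. Of the 67, 56 were at 5 or more on all 6 arrays, as were 75.7% of all genes detected on the Control. The other 11 were Epha2, Jam3, Capn3, Foxe3, Gata3, Pdgfra, Aqp1, Fgfr3, Sulf1, Col4a2 and Col4a5, whose detection on the Control was not shared by every other array.

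**Figure D2:**
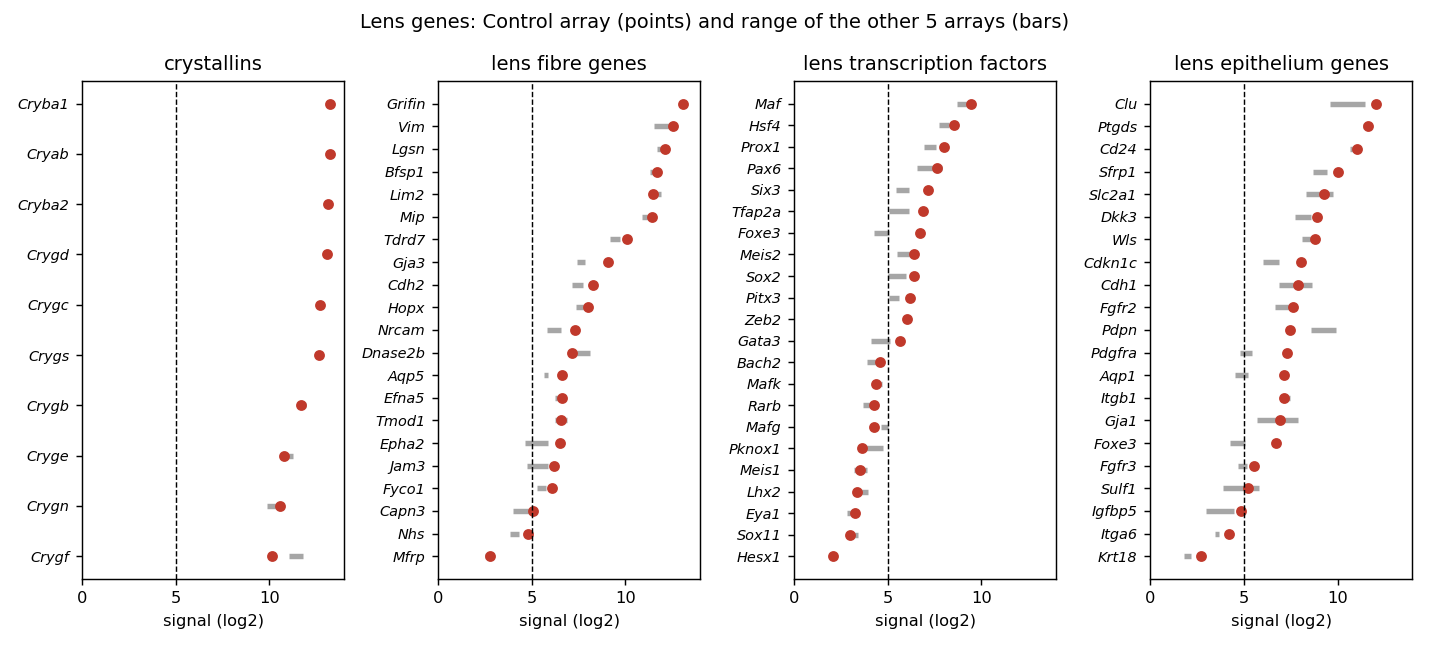
Log2 signal of crystallins, lens fibre genes, lens transcription factors and lens epithelium genes, with the Control as red points, the range of the other 5 arrays as grey bars and the bound of 5 as a dashed line. All 10 crystallins lie above 10, while the transcription factors run from 2.05 to 9.46 across the bound. The Control value lies above the whole range of the other arrays for many genes, Foxe3 and Aqp1 among them, and below it for others such as Crygf.

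Of 21 fibre genes linked, 19 were detected (90.5%, against 24.5% of all genes). At 5 or more on all 6 arrays were 16 of the 19, against 75.7% of all genes detected on the Control. The highest were Grifin (13.08), Vim (12.53), Lgsn (12.14) and Bfsp1 (11.68), the beaded filament protein filensin, followed by the fibre membrane proteins Lim2 (11.49) and Mip (11.42). Tdrd7 (10.08), an RNA granule protein whose loss causes cataract, and Gja3 (9.09), the gap junction protein connexin 46, also stood well above the bound, and Cdh2, N-cadherin, was at 8.27. Dnase2b (7.17), the lysosomal nuclease that degrades fibre cell DNA, and Aqp5 (6.64), a water channel, were detected lower down. Capn3 (5.04), a calcium-dependent protease of the lens, lay at the bound and was between 4.02 and 5.15 on the other arrays, and Nhs (4.79), the gene of Nance-Horan syndrome, lay just below it. The lowest member of the list was Mfrp (2.77), whose place among fibre genes these data do not show. Bfsp2, Lenep, Birc7 and Chmp4b were among the listed genes that had no probe set of their own.

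Grifin and Vim, the highest fibre genes, differed in how far they moved between arrays. Grifin stood at 13.08 on the Control, at 13.04, 13.11 and 13.14 on the Galactose arrays, at 13.12 with AZD0156 and at 13.10 with KU55933. Vim ranged more widely, from 12.53 on the Control to 11.54, 12.42 and 12.43 on the Galactose arrays, 11.99 with AZD0156 and 11.94 with KU55933, with the Control highest. The TATA letters also stood before the starts of Mip, Lgsn and Grifin in the same window as in the crystallins, and not before those of Lim2 and Bfsp1. The window of Mip (chr7:1231855-1231904, plus strand) and that of Bfsp1 (chr3:151682838-151682887, minus strand) are shown as an example of each.
Mip: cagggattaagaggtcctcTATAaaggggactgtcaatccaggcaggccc
Bfsp1: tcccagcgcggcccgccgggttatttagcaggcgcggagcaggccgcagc

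Of 21 epithelium genes linked, 18 were detected (85.7%, against 24.5% of all genes). At 5 or more on all 6 arrays were 13 of the 18, against 75.7% of all genes detected on the Control. Clu (12.08), Ptgds (11.63), which makes prostaglandin D2, Cd24 (11.06), a small anchored surface protein, and Sfrp1 (10.02), a secreted antagonist of Wnt signalling, were highest. Slc2a1 (9.26), the glucose transporter Glut1, Dkk3 (8.93), Wls (8.78), which carries Wnt proteins to the cell surface, and Cdkn1c (8.06), the cell cycle inhibitor p57, followed. Cdh1, E-cadherin, stood at 7.86, Pdgfra, the PDGF receptor alpha, at 7.32, Aqp1, the water channel of lens epithelium, at 7.16 and Gja1, connexin 43, at 6.93. Aqp1 was at 4.52, 4.85 and 4.79 on the Galactose arrays, at 5.22 with AZD0156 and at 4.66 with KU55933, so it was over the bound on the Control and with AZD0156 and below it on the other 4. Sulf1 (5.20) and Igfbp5 (4.85) lay on either side of the bound, and Itga6 (4.19), the integrin alpha 6, and Krt18 (2.73), a simple epithelial keratin, were not detected. Genes of the epithelium were thus detected in the Control beside those of the fibres.

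Of 22 lens transcription factors linked, 12 were detected (54.5%, against 24.5% of all genes). Maf (9.46), which drives fibre genes, Hsf4 (8.55), the heat shock factor of the lens, Prox1 (7.98), needed for fibre elongation, and Pax6 (7.65) were highest. Six3 (7.16), Tfap2a (6.89), Foxe3 (6.69), Meis2 (6.42), Sox2 (6.39), Pitx3 (6.19), Zeb2 (6.05) and Gata3 (5.65) were the others. The 10 not detected ran from Bach2 (4.56), Mafk (4.36), Rarb (4.28) and Mafg (4.24) down to Eya1 (3.24), Sox11 (3.0) and Hesx1 (2.05). Several of these, such as Hesx1 and Sox11, are known from early eye development, and the small Maf proteins Mafg and Mafk partner other factors in many tissues. Maf was at 8.72, 8.90 and 9.57 on the Galactose arrays, at 9.05 with AZD0156 and at 9.06 with KU55933, so the highest factor of the Control stood high on all 6.

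The capsule is a thick basement membrane made by the lens cells, and 9 of its 20 linked genes were detected (45.0%, against 24.5% of all genes). Sparc (10.36), a collagen-binding matrix protein, and Nid1 (8.56), nidogen 1, were highest. All 5 type IV collagen chains that were linked were detected, from Col4a1 (7.41) and Col4a3 (6.54) through Col4a2 (6.09) and Col4a4 (5.90) to Col4a5 (5.60). The laminin chains lay about the bound, with Lama5 at 5.23, Lamc1 at 5.16, Lamb2 at 4.90 and Lama1 at 4.61. The lowest members of the list were Tgfbi at 2.59, Bgn, biglycan, at 2.39 and Dcn, decorin, at 1.81. On the EMT list, of genes used to follow epithelial cells turning mesenchymal, 7 of 16 were detected (43.8%, against 24.5% of all genes). They were led by Vim, Cdh2, Cdh1 and Tgfb1 (6.90), while Snai1 (2.42) and Twist1 (1.38) were lowest beside Tgfbi. Vim and Cdh2 are also on the fibre list and Cdh1 on the epithelium list, so the count is not a reading of EMT in the Control.

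**Figure D3:**
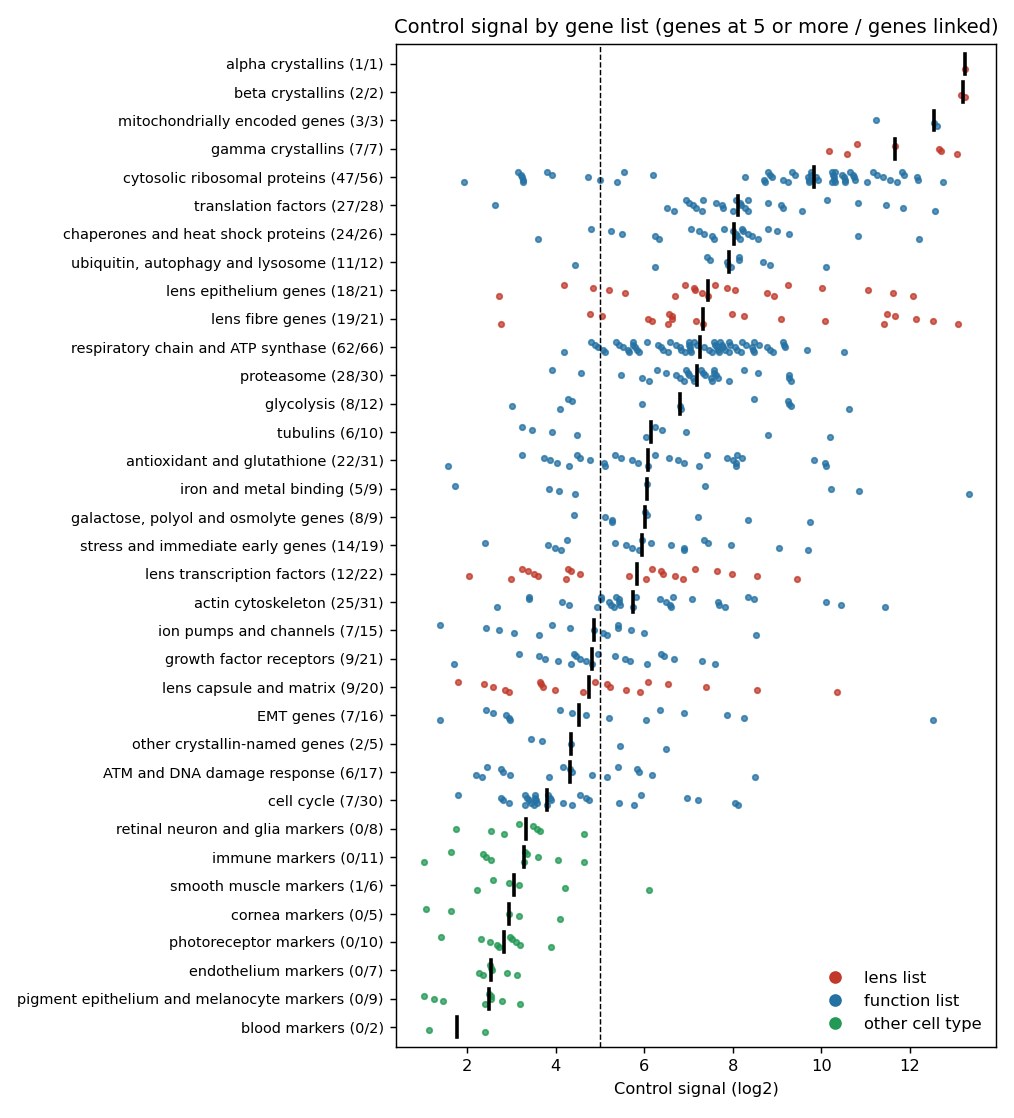
Control signal (log2) of each linked gene by gene list, with 1 point per gene, black bars at the list medians, the bound of 5 dashed and the number detected over the number linked in brackets. Crystallins, ribosomal proteins and translation factors lie high, several lists such as the cell cycle (median 3.81) centre between the median of all genes (3.46) and the bound, and the 8 lists of other cell types lie almost wholly below it.

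The markers listed for other cell types were nearly all below the bound, with 1 of 58 linked markers detected (1.72%, against 24.5% of all genes) and a median of 2.70. No photoreceptor marker of 10 was detected, the highest being Pde6b at 3.91, and neither was any of 8 markers of retinal neurons and glia, the highest being Rbfox3 at 4.63 and Gfap at 3.66. None of 9 pigment epithelium and melanocyte markers exceeded Ttr at 3.20, none of 7 endothelial markers exceeded Egfl7 at 3.12, and the defining genes Rpe65 and Cdh5 were at 1.03 and 2.36. Among 11 immune markers the highest was Lyz2 at 4.64, with Ptprc, the leukocyte antigen CD45, at 1.63, and among 5 corneal markers the highest was Aldh3a1 at 4.11, with Krt12 at 3.17. Both blood markers linked were low, Slc4a1 at 2.42 and Hba-a1 at 1.14.

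The marker detected was Des, the muscle intermediate filament desmin, at 6.11 on the Control. It stood at 3.82, 3.65 and 4.18 on the Galactose arrays, at 3.70 with AZD0156 and at 3.96 with KU55933, so it passed the bound on the Control alone. The other 5 smooth muscle markers were not detected, with Smtn at 4.22, Myh11, the smooth muscle myosin heavy chain, at 3.19 and Myocd at 2.95. Acta2 and Cnn1, further smooth muscle genes, were not linked to a probe set of their own. Tagln, also used as a smooth muscle marker, was placed on the actin list and is not in this count. It stood at 5.20 on the Control, just over the bound, and between 5.83 and 8.51 on the other arrays.

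As a gauge of the bound, the receptors for odours, pheromones and tastes were set beside it, a class chosen after its values were seen because a lens has no known use for most of them. Of 1397 such genes, 2 (0.143%) were at 5 or more, their median was 1.48 and their 95th percentile 3.06. The exceptions were Or8h7b at 9.20 and Or9i1b at 5.42, both odorant receptors. Or8h7b was also high on the other arrays, at 7.46, 8.59 and 8.57 for Galactose, at 8.72 with AZD0156 and at 8.02 with KU55933. Whether these signals came from the named receptors was not tested.

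**Figure D4:**
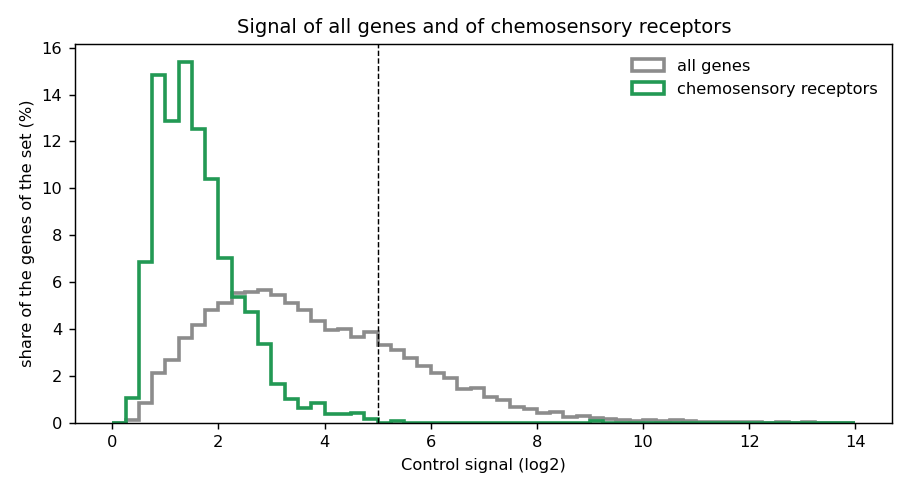
Share of genes (%) by Control signal (log2, in equal bins) for all 18166 genes in grey and for 1397 chemosensory receptors in green, with the bound of 5 dashed. The receptors peak near their median of 1.48 and 2 of them lie past the bound, while 24.5% of all genes do.

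Genes of protein synthesis filled many of the highest places. Each count of detected members that follows stands beside 24.5% of all genes and a median of 3.46. Of 56 cytosolic ribosomal protein genes linked, 47 were detected with a list median of 9.83, and 43 of them reached 8. Rps29 (12.75), Rpsa (12.18), Rpl41 (12.16) and Rpl23 (11.88) were highest. The 9 below the bound included Rpl27a (3.21), Rps9 (3.15) and Rpl26 (1.94), although ribosomes need all of these proteins in equal number, and 23 of the 79 listed genes had no probe set of their own. Ribosomal protein genes have many processed copies, and 54 of 137 paralogs and pseudogenes by name were detected as well, so the source of a signal among the copies is uncertain.

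Ribosomal protein genes often start in a run of pyrimidines, and their promoters are shown for that reason. The letters CTTTCC or CTTCC stood on the gene's strand between 20 bases before and 10 bases after a start in 24 of 46 ribosomal protein genes with a promoter (52.2%). They stood there in 8.67% of all genes, in 7.57% of all promoter windows, in 23.4% of the 77 of the 100 highest genes that have a promoter and in 0 of 9 crystallins. The TATA letters stood before 15.2% of the ribosomal protein genes, against 4.85% of all genes. This window does not ask that the letters hold the start itself, so the shares do not count genes that start in such a run. The 30 bases about the start are given for 4 of the genes, with 1 match in capitals where there is any (in Rpl21 and Rpl13a a CTTCC overlaps the CTTTCC marked). The capitals begin at -14 in Rpsa, -12 in Rpl21 and -8 in Rpl13a, and in all of these they end before the annotated start.
Rpsa: cccgtcCTTTCCgcgctaccctggaacggg
Rpl21: ccctcttcCTTTCCgccggggcagccatct
Rpl13a: caagacctcttcCTTTCCtaggcggctgcc
Rpl41: gaaggggcggctcggaagtgacgacaccaa
They lie at chr8:128728859-128728888 (plus strand) for Rpsa, chr12:13386144-13386173 (minus) for Rpl21, chr1:104748904-104748933 (minus) for Rpl13a and chr7:1563488-1563517 (minus) for Rpl41, which lacked both strings.

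Translation factors were detected in 27 of 28 cases, with a median of 8.12. Eef1a1 (12.57), Tpt1 (11.84), the translationally controlled tumour protein, Eef1g (11.47) and Btf3 (10.83) were highest, and Naca (6.67), Eif4e (6.51), the cap-binding protein, and Eef1b2 (2.64) were lowest. Chaperones were detected in 24 of 26 cases, with a median of 8.03. Hspa8 (12.21) led them, followed by Hspb1 (10.82), a small heat shock protein like Cryab, and by Cct2 (9.28) and Cct5 (9.01), subunits of the chaperonin that folds actin and tubulin. Bag3 (5.25) was low, and Hspb2 (4.81) and Hspb8 (3.61) were not detected.

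Protein breakdown was also well represented. Of 30 proteasome subunits linked, 28 were detected, with Psmb7 (9.31), Psma7 (9.29), Psmb6 (9.28) and Psmc2 (8.58) highest and Psma5 (5.49), Psmd8 (4.58) and Psmb3 (3.93) lowest. Of 12 genes of ubiquitin, autophagy and the lysosome, 11 were detected, led by Gabarap (10.11), a protein of the autophagosome membrane, the protease Ctsb (8.84), the lysosomal membrane protein Lamp2 (8.68) and the autophagy receptor Sqstm1 (8.15). Map1lc3a (4.44) was the member not detected.

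Energy genes stood high as well. All 3 mitochondrially encoded genes that were linked, COX1 (12.61), COX3 (12.54) and COX2 (11.23), were among the 100 highest, and 10 of the 13 listed had no probe set of their own. Of 66 nuclear genes of the respiratory chain and ATP synthase, 62 were detected with a median of 7.27, led by Cox6a1 (10.52), Uqcrh (9.69), Atp5f1d (9.18) and Atp5f1b (9.15), and Ndufs6 (4.89), Sdhc (4.79) and Uqcrb (4.19) were lowest. Of 12 glycolysis genes, 8 were detected. Aldoc (10.63), aldolase C, Pgk1 (9.32), Gpi (9.27) and Slc2a1 (9.26) had the highest signals, and Ldhb (4.28), Pfkp (4.11) and Pfkm (3.01) were not detected while Ldha (6.81) and Pfkl (6.83) were. Gapdh, Pkm, Eno1 and Tpi1 share a probe set with other symbols and Hk1 and Pgam1 were not linked, so much of the pathway was not read.

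Antioxidant defence, on which a clear lens relies, was detected in 22 of 31 genes with a median of 6.09. Hmox1 (10.11), the haem oxygenase induced by stress, Txn1 (10.09), thioredoxin, Park7 (9.83) and Sod1 (8.20), the cytosolic superoxide dismutase, were highest. Gclm (7.23), Gss (6.90) and Gclc (5.11), which make glutathione, were all detected, the last close to the bound, while Gsr (4.54), which reduces it, was not. Nqo1 (3.73), Srxn1 (3.24) and Gsta4 (1.58) were lowest. Of 9 iron and metal binding genes, 5 were detected, with Ftl1 (13.34), Fth1 (10.86), the ferritin heavy chain, and the metallothioneins Mt2A (10.22) and Mt1 (7.37) highest, and Slc40a1 (1.73), the iron exporter ferroportin, lowest.

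Of 9 genes that handle galactose and the osmolytes of the lens, 8 were detected on the Control, which had no galactose (88.9%, against 24.5% of all genes). At 5 or more on all 6 arrays were 4 of the 8, against 75.7% of all genes detected on the Control. Akr1b1, aldose reductase, which turns galactose into galactitol, stood at 9.76 on the Control, at 9.18, 9.67 and 9.44 on the Galactose arrays, at 8.98 with AZD0156 and at 9.11 with KU55933. It was high on every array. Slc38a2 (8.35), an amino acid transporter, Slc6a6 (7.22), the taurine transporter, and Nfat5 (6.06), the factor that responds to osmotic stress, followed. Galm (6.03), the galactose mutarotase, was detected, and Galt (4.41), the transferase of the main galactose pathway, was not. Slc5a3, the inositol transporter, was at 5.29 on the Control, at 2.52, 1.39 and 1.96 on the Galactose arrays, at 1.60 with AZD0156 and at 1.89 with KU55933, so it passed the bound on the Control alone, as did Nfat5 and Sord (5.28), sorbitol dehydrogenase. A3galt2 (5.12) lay just over the bound.

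Among actin cytoskeleton genes, 25 of 31 were detected, with Actb (11.44), Arpc2 (10.44), Pfn1 (10.11) and Cnn3 (8.48) highest and Tpm3 (3.39), Tmsb4x (3.39) and Tpm2 (2.68) lowest. Tagln, the actin-binding protein transgelin, stood at 5.20 on the Control, below the other arrays, which had 7.24, 7.98 and 8.51 for Galactose, 5.83 with AZD0156 and 6.54 with KU55933. Of 10 tubulins, 6 were detected, with Tubb5 (10.20), Tubb6 (8.80), Tubg1 (6.95) and Tuba1b (6.40) highest, and the neuronal Tubb3 (3.92), Tuba4a (3.47) and Tubb2b (3.25) lowest. Ion pumps and channels, by which the lens moves salt and water without vessels, were detected in 7 of 15 cases (46.7%, against 24.5% of all genes). At 5 or more on all 6 arrays were 3 of the 7, against 75.7% of all genes detected on the Control. Atp1b3 (8.54), a beta subunit of the sodium pump, was highest, followed by the calcium pump Atp2a2 (5.99), Atp1b1 (5.71) and the volume-regulated channel Lrrc8a (5.42), and Trpv1 (2.71), Trpv4 (2.43) and Kcnj13 (1.40) were lowest. The alpha subunits of the sodium pump were not linked.

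Growth factor receptors and cell cycle genes were detected in smaller shares than the lists of protein synthesis and energy above. Of 21 growth factor receptors, 9 were detected (42.9%, against 24.5% of all genes), led by Fgfr2 (7.61), Pdgfra (7.32), Igf1r (6.69) and Fgfr1 (6.46), and Met (3.63), Pdgfrb (3.18) and Bmpr1b (1.71) were lowest. FGF receptors are known to be needed for fibre formation. Of 30 cell cycle genes, 7 were detected (23.3%), a share near that of all genes. These were the kinase Cdk4 (8.13), the inhibitors Cdkn1c (8.06), Cdkn1b (6.97) and Cdkn1a (5.43), the cyclins Ccnd2 (7.22) and Ccnb2 (5.94), and Pcna (5.77). The proliferation markers Mki67 (3.87) and Top2a (3.89) were below the bound, and Ccnb1 (2.82), Rrm2 (2.76) and Bub1 (1.80) were lowest.

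Of 17 linked genes of Atm signalling and the DNA damage response, 6 were detected (35.3%, against 24.5% of all genes), and the list median was 4.34 against 3.46. Gadd45a (8.50), a growth arrest gene induced by DNA damage, was highest, followed by Xrcc6 (6.19) and Xrcc5 (5.88), the Ku proteins of end joining, and Mdm2 (5.83), the ubiquitin ligase of p53. Atm, the kinase that both inhibitors of the study target, stood at 2.81 on the Control, at 2.94, 2.64 and 3.12 on the Galactose arrays, at 2.77 with AZD0156 and at 2.98 with KU55933. It was below the bound on all 6 arrays. Plk3, a polo-like kinase, stood at 2.76 on the Control and at 5.06, 5.57 and 5.51 on the Galactose arrays, 4.69 with AZD0156 and 4.89 with KU55933, so the Control was the lowest of the 6. Brca1 (2.46), Chek1 (2.33) and Chek2 (2.20) were the lowest of the list.

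Stress and immediate early genes were detected in 14 of 19 cases. Atf4 (9.69), the factor of the integrated stress response, and its targets Ddit3 (9.06) and Chac1 (7.96) were highest, with Txnip (7.45), which binds thioredoxin. On the other 5 arrays Atf4 was between 9.81 and 10.28 and Ddit3 between 9.10 and 10.89, so the Control was the lowest array for both while still far above the bound. Fosb (3.99), Atf3 (3.84) and Myc (2.41) were lowest. The Control lenses were cultured for days before RNA was taken, and no fresh lens was among the samples used here, so levels set by culture and levels of the lens in the eye cannot be told apart.

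Genes of miRNAs were mostly below the bound, with 9 of 363 at 5 or more (2.48%). They were Mir181d (6.25), Mir761 (6.01), Mir204 (5.76), Mir483 (5.42), Mir138-2 (5.40), Mir210 (5.32), Mir92b (5.31), Mir346 (5.10) and Mir328 (5.02). The mature sequences of 3 of them are shown from RefSeq, with the seed, bases 2 to 8, in capitals. Mir204, which lies in the gene Trpm3, is known for its level in the lens, and the seeds of the 3 differ.
rno-miR-204-5p: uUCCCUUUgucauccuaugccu
rno-miR-181d-5p: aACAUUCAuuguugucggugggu
rno-miR-92b-3p: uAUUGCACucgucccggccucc
Mir204 was at 5.21, 5.17 and 6.25 on the Galactose arrays, at 6.36 with AZD0156 and at 5.38 with KU55933, so it reached the bound on all 6. The probe sets of this array lie on the miRNA gene, and whether they read the mature form or its precursor was not tested.

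Across arrays, 3368 of the 4450 genes detected on the Control (75.7%) were at 5 or more on all 6 arrays. A further 238 passed the bound on the Control alone, with a median Control signal of 5.23 and a highest of 7.40, and 150 were below it on the Control and at or above it on all 5 others. The number of genes detected per array ran from 4057 with AZD0156 to 4614 on a Galactose array, and the Control with 4450 lay between them. On all 6 arrays 12688 genes were below the bound. These counts say which genes passed a bound and not which genes differed.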

How the data were processed

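Lens RNA was hybridised to 6 arrays (GeneChip Rat Gene 2.0 ST). Per the methods, the authors obtained the log2 signals with Robust Multi-array Average normalization over the whole set of arrays, using R, before they deposited them. The package and annotation are not given in the sources used here. Signals have no absolute unit, and the number of arrays limits the precision.

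The deposited values were used unchanged. Of the 19086 probe sets linked to a gene, the 18511 with 1 symbol were kept, covering 18166 genes, and the 575 with several were left out, which left 670 symbols without a value. A gene with several probe sets (291 genes) took the one with the highest mean over all 6 arrays, so the other arrays shared in that choice. Sequences and gene types came from RefSeq (GRCr8), in which 18053 genes were matched. Members and the 35 gene lists were chosen with earlier results of these data known. The rule was to name the 20 highest genes, all crystallins and lens markers, lens genes within 0.25 of the bound, Atm and Plk3. It also asked for the 4 highest and 3 lowest of each other list described. Some lists, such as those of other cell types, name fewer members than this, and other genes were chosen after their values were seen. Steps were tested on simulated data and run in Python 3.11.15 with numpy 2.4.6 and pandas 2.3.3.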

Additional observations from a re-analysis of the deposited data

Results flagged for a closer look

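Among the 100 highest of all 36685 probe sets on the Control array, 59 were not linked to a gene, a signal in rows that the ranking does not use. The same held for 13 of the 20 highest and 30 of the 50 highest, and the highest of them reached 13.57, above Ftl1 (13.34), the highest ranked gene. Of the 17599 probe sets not linked, 2329 (13.2%) were at 5 or more, against 4710 of the 19086 linked, and 174 were at 10 or more, against 163 linked. Genes without a value above, such as Cryaa, Crybb1, Crybb2, Crybb3 and Bfsp2, may or may not be among them, which was not tested because the probe table does not name them.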

How the results depend on the processing

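The Control had 1 array, so none could be left out and no paired analysis was possible. Of 29 alternative values, 24 stayed within 1.5 times the value reported and 5 did not. The number of genes detected was 7266 at a bound of 4 and 2348 at a bound of 6, against 4450 at 5. Markers of other cell types numbered 6 at a bound of 4 and 0 when 5 or more was asked on all 6 arrays, an alternative added after seeing the data, against 1. Ribosomal proteins numbered 11 among the 50 highest genes, against 26 among the 100 highest, and 39 with paralogs and pseudogenes added. Lens genes detected ranged from 56 to 76, against 67, and crystallins among the highest genes from 7 to 10, against 9.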
